A study of Mus musculus with 8 samples.

Results

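The proteins of the BCL2 family decide at the mitochondrion whether a B cell survives, and the RNA of 10 members was followed in splenic B cells with and without the transcription factor Irf4. The pro-survival members were Bcl2, Bcl2l1 (which encodes BCL-XL) and Mcl1. The BH3-only members, which promote death, were Bcl2l11 (BIM), Bmf, Bid, Bbc3 (PUMA) and Pmaip1 (NOXA), and the pore-forming effectors were Bax and Bak1. Members were taken by name, with every probe set that the platform annotation assigns to that gene alone, which gave 30 of the 45101 probe sets on the array and covered 9 of the 10 genes, of 18193 genes named in this way. No probe set was assigned to Bax alone, so Bax was not analysed.

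The groups were irf4-/- mice (Irf4 null, n = 4 arrays) and irf4+/+ littermates (wild type, n = 4 arrays), all of strain C57BL/6 and 12 weeks old. Splenic mononuclear cells were depleted of cells other than B cells with magnets, so all samples are the untouched B cell fraction, labelled as mature B cells, and no treatment of the cells is named. The sources used here do not describe the null allele. Nothing in the labels ties an array to a single mouse, and the p-values therefore rest on a spread that could in part be technical.

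BH3-only proteins are made or activated when cells are stressed or lose growth signals. They occupy the groove of the pro-survival proteins and so release the effectors, which perforate the outer mitochondrial membrane and let cytochrome c out to start the caspases. Resting B cells of the spleen depend on signals from the B cell receptor and from the cytokine BAFF to keep this balance on the side of survival, and BIM is the BH3-only protein best known for limiting the number of mature B cells in mice.

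The targeted gene was low in all arrays labelled Irf4 null. Irf4 itself, at its brighter probe set, read 285, 259, 244 and 315 on the Irf4 null arrays, against 2035, 1720, 1779 and 2341 on the wild-type arrays (MAS5 signal, the intensity per probe set on a linear scale). Arrays also differed in a way that genotype does not explain. Xist, the RNA of the inactive X chromosome of females, read 17119 to 19652 on Irf4 null array 1 and wild-type arrays 1, 3 and 4 (Xist-high), and 49.2 to 94.8 on Irf4 null arrays 2, 3 and 4 and wild-type array 2 (Xist-low). Eif2s3y, a gene of the Y chromosome, read 3.31 to 25.4 on the Xist-high and 3216 to 4530 on the Xist-low arrays. By these genes the Xist-high arrays are female and the Xist-low arrays male, so sex was not balanced between the genotypes. Markers of T cells, NK cells, myeloid cells, erythroid cells and platelets split the same way as a pooled mean. Over 52 genes this mean was 8.43, 9.60, 9.93 and 8.98 (log2) on the Irf4 null arrays, and 8.04, 9.50, 8.26 and 8.13 on the wild-type arrays. Some single genes split so as well. The neutrophil marker S100a8 read 2580 to 4969 on the Xist-high and 7677 to 30012 on the Xist-low arrays. The monocyte marker Csf1r read 2085 to 2740 and 6142 to 9507. Platelet markers departed from this split, with their highest sum, 6244, on the Xist-high Irf4 null array 1. T cell markers summed to 7635 on wild-type array 2, within the range of the other wild-type arrays. Most of that sum was Cd2, at 4824, against 5767, 6318 and 6376 on the other wild-type arrays. Among the wild-type arrays Cd8a, Cd8b1, Thy1, Lat and Il7r were highest on array 2, while Cd3d, Cd3e, Cd3g and Cd247 were not. Wild-type array 2 therefore stands apart from the other wild-type arrays in both measures. The 7 B cell markers tested gave no call (limma; 0 also at an unadjusted p below 0.05). Their summed signal ranged over 68243 to 74843 on the Irf4 null arrays and 66389 to 77954 on the wild-type arrays.

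Of the 30 probe sets, 25 were bright enough to be tested and 5 were dim (3 of Bcl2l1, 1 of Bmf and 1 of Bak1). Genotypes were compared with limma on log2(signal + 16), with p-values adjusted over all 27022 probe sets tested and a threshold of 0.05, so that a fold change is the Irf4 null minus the wild-type mean on that scale and understates changes of dim probe sets. In Irf4 null B cells 5 of the 25 fell: 4 of the 5 probe sets of Bcl2 and 1 of the 2 tested probe sets of Bmf, so that 1 gene of each side of the balance was lower. None rose (limma), and 8 had an unadjusted p below 0.05, the 5 that fell together with 2 of Bid and 1 of Pmaip1 whose fold changes were positive. Over all probe sets tested, 3.52% were called, 2.01% as higher and 1.51% as lower, and 17.1% had an unadjusted p below 0.05. The same 5 were those in which all Irf4 null arrays lay below all wild-type arrays, which held for 5.33% of all probe sets, and in none did they lie above, which held for 5.48%. With Xist-high as a term 2 of the 25 were called (2.36% of all), with the other-cell covariate 3 (2.22%), within the Xist-high arrays 1 (0.944%) and within the Xist-low arrays 0 (0.977%; 8 at an unadjusted p below 0.05). Each fit within Xist-high or Xist-low arrays has a single array of 1 genotype, Irf4 null array 1 or wild-type array 2. Their p-values assume that this array varies like the others. With array weights 5 fell as before and 1 probe set each of Bid and Pmaip1 rose. Probe sets of 1 gene measure the same RNA, so the 5 calls concern 2 of 9 genes, against 4.37% of all 11802 genes at their brightest probe set (2.67% higher and 1.70% lower). The median log2 fold change of the 25 was -0.081, against 0.0030 over all probe sets. In RNA of a whole cell preparation, fewer cells of a type and less RNA per cell cannot be told apart.

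**Figure D1:**
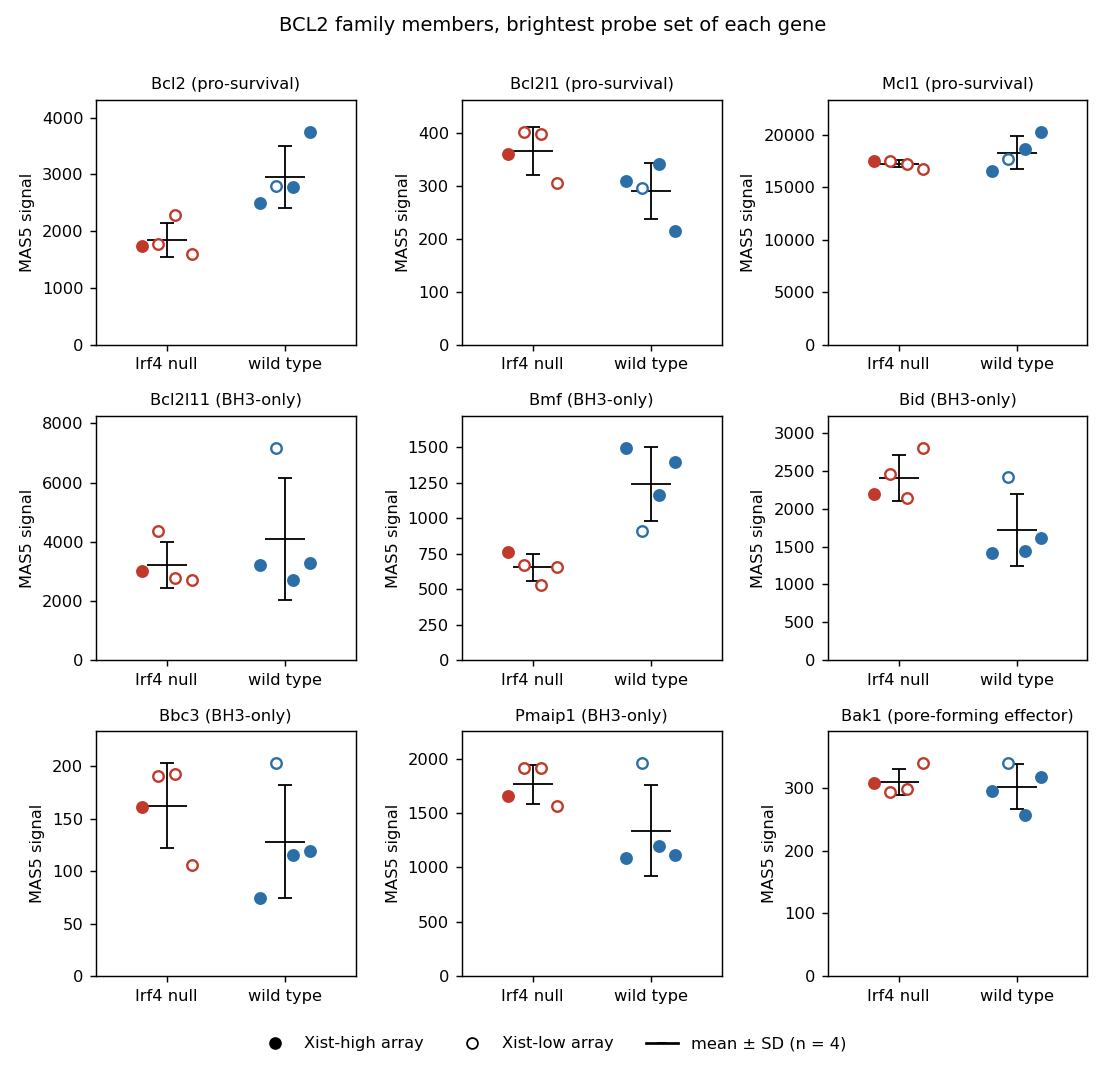
MAS5 signal (linear scale) of the brightest probe set of each of the 9 genes on the 4 Irf4 null (red) and 4 wild-type (blue) arrays, with filled points for Xist-high and open points for Xist-low arrays, and the mean ± SD of each group. Bcl2 and Bmf are the genes whose Irf4 null points all lie below the wild-type points; for Bcl2l11, Bid, Bbc3, Pmaip1 and Bak1 the open wild-type point, array 2, is the highest of its group.

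Bcl2 encodes the founding pro-survival protein, which binds BIM and keeps mature lymphocytes alive. Its brightest probe set, 1457687_at, read 1736, 1775, 2286 and 1590 on the Irf4 null arrays and 2505, 2792, 2782 and 3753 on the wild-type arrays. Every Irf4 null array lay below every wild-type array. The signal averaged 1847 ± 303 in Irf4 null and 2958 ± 547 in wild type (SD, n = 4 each). The mean signal fell by 37.6%, and the log2 fold change was -0.67 ± 0.14 (SE; limma, adjusted p = 0.0248). The decrease was -0.77 within the Xist-high arrays and -0.58 within the Xist-low arrays, where neither value passed on so few arrays (adjusted p = 0.221 and 0.337). With Xist-high as a term the fold change stayed at -0.67 with an adjusted p of 0.0567, and with the mean of the other-cell markers as a covariate it was -0.74 with an adjusted p of 0.0427.

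The 3 other called probe sets of Bcl2 gave decreases of similar size, and each separated the groups completely. Probe set 1443837_x_at read 426, 473, 350 and 298 on the Irf4 null arrays and 598, 742, 659 and 802 on the wild-type arrays, a log2 fold change of -0.84 ± 0.15 (adjusted p = 0.0127). The ending x marks a probe set whose probes may also bind other transcripts. Probe set 1437122_at read 467, 453, 599 and 424 on the Irf4 null arrays and 639, 678, 877 and 867 on the wild-type arrays, a log2 fold change of -0.64 ± 0.14 (adjusted p = 0.0348). Probe set 1422938_at read 325, 282, 337 and 276 on the Irf4 null arrays and 439, 442, 421 and 481 on the wild-type arrays, a log2 fold change of -0.53 ± 0.11 (adjusted p = 0.0268). These were the tightest groups among the Bcl2 probe sets, with SDs of 30.5 in Irf4 null and 25.6 in wild type.

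The remaining Bcl2 probe set did not pass. Probe set 1440770_at read 765, 1172, 1193 and 1202 on the Irf4 null arrays, and 1411, 1120, 1432 and 1210 on the wild-type arrays. Its groups overlapped, its log2 fold change of -0.27 ± 0.15 did not pass (adjusted p = 0.404), and its 95% interval was -0.60 to 0.061. The low value is that of the Xist-high Irf4 null array. Within the Xist-high arrays the difference was -0.80 (adjusted p = 0.0265), and within the Xist-low arrays it was 0.085 (adjusted p = 0.873). The test of the difference between those values did not pass (-0.89, adjusted p = 0.355). The sources used here do not say which part of the Bcl2 transcript each probe set reads. Leaving out 1 array kept all 5 Bcl2 fold changes negative, between -0.94 and -0.11, but the calls were sensitive to it. The calls of 1457687_at, 1437122_at and 1422938_at were each lost in 5 of 8 such fits, with adjusted p-values up to 0.116, while 1443837_x_at stayed below the threshold in all 8 (highest adjusted p = 0.0494).

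**Figure D2:**
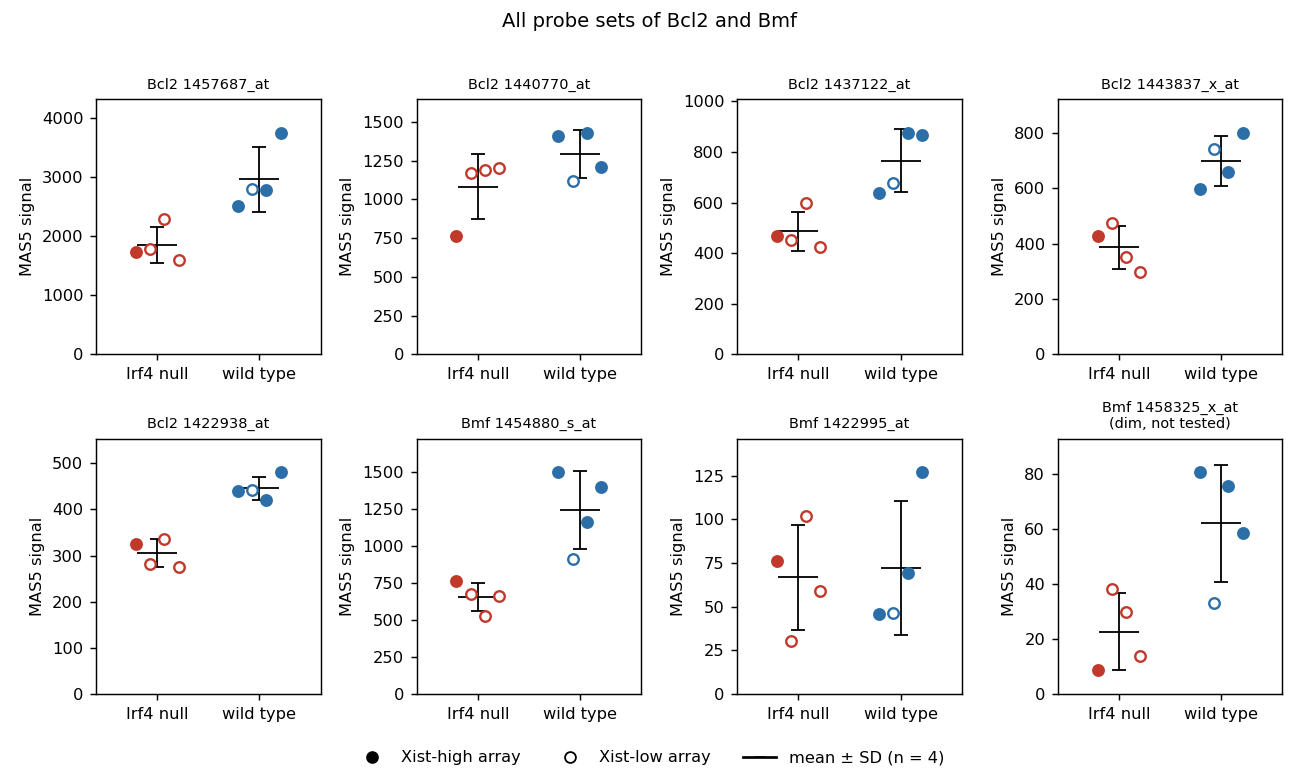
MAS5 signal (linear scale) of all 5 probe sets of Bcl2 and all 3 of Bmf on the 4 Irf4 null (red) and 4 wild-type (blue) arrays; filled points are Xist-high arrays, open points Xist-low arrays, and bars the mean ± SD. In 4 Bcl2 panels and in Bmf 1454880_s_at the groups do not overlap; in Bcl2 1440770_at 1 Irf4 null array at 765 stands below the other 3, which lie among the wild-type arrays.

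Bcl2l1 encodes BCL-XL, which protects immature and activated B cells. Its single bright probe set, 1420888_at, read 360, 403, 399 and 306 on the Irf4 null arrays and 309, 297, 341 and 215 on the wild-type arrays. The lowest Irf4 null array lay below 2 wild-type arrays, so the groups overlapped, and the log2 fold change of 0.33 ± 0.16 did not pass (adjusted p = 0.309). Its 95% interval, -0.010 to 0.67, leaves room for an increase as large as the decrease of Bcl2. The other 3 Bcl2l1 probe sets were dim, with means of 18.5 to 30.4 in Irf4 null and 8.54 to 30.8 in wild type, below the filter at a signal of 42.9.

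Mcl1 encodes a pro-survival protein of rapid turnover that B cells need at most stages. All 6 of its probe sets were tested. The brightest, 1437527_x_at, read 17501, 17532, 17266 and 16802 on the Irf4 null arrays and 16587, 17740, 18627 and 20316 on the wild-type arrays. The 6 log2 fold changes lay between -0.13 and 0.076, none passed (lowest adjusted p = 0.488), and their 95% intervals all lay between -0.32 and 0.25. The largest of these, for 1456381_x_at, was -0.13 ± 0.085. A change of Mcl1 RNA as large as that of Bcl2 lies outside these intervals.

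Bmf encodes a BH3-only protein that is tethered to motor complexes of the cytoskeleton and released under stress, and it had the most negative fold change of the 9 genes at their brightest probe sets. Probe set 1454880_s_at read 761, 674, 529 and 659 on the Irf4 null arrays and 1498, 908, 1163 and 1397 on the wild-type arrays. The groups did not overlap; the lowest wild-type value came from array 2. The mean was 656 ± 95.4 in Irf4 null and 1242 ± 263 in wild type (SD, n = 4 each). The mean signal fell by 47.2%, with a log2 fold change of -0.89 ± 0.16 (limma, adjusted p = 0.0127). Bmf also passed when Xist-high was a term (-0.68, adjusted p = 0.0244), with the other-cell covariate (-0.62, adjusted p = 0.0225) and without any single array (highest adjusted p = 0.0494). It had -0.81 within the Xist-high arrays and -0.54 within the Xist-low arrays, neither past the threshold (adjusted p = 0.0932 and 0.249). The ending s marks probes shared by several transcripts, which need not all be of 1 gene. The other tested probe set, 1422995_at, read 76.0, 30.1, 102 and 59.2 on the Irf4 null arrays and 45.8, 46.4, 69.5 and 127 on the wild-type arrays, so it was close to the dim level and did not pass (-0.083, 95% interval -0.84 to 0.68, adjusted p = 0.938). The dim Bmf probe set, 1458325_x_at, read 8.58, 38.4, 30.0 and 13.9 on the Irf4 null arrays and 80.8, 33.3, 75.7 and 58.6 on the wild-type arrays. It was left out of the main test, and without the filter it did not pass (-1.04, limma, adjusted p = 0.189).

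Since Bcl2 and Bmf are the members that fell, the 250 bases before a start of each gene are shown, from the RefSeq promoter table of GRCm38.p6. They lie at chr1:106714291-106714540 (minus strand, Bcl2) and chr2:118549687-118549936 (minus strand, the farthest upstream of 3 starts of Bmf), and are written 5′ to 3′ with capitals for GGAA, the core that Ets factors bind, and GAAA, the core that IRF factors bind, on either strand (the 2 can overlap).
Bcl2: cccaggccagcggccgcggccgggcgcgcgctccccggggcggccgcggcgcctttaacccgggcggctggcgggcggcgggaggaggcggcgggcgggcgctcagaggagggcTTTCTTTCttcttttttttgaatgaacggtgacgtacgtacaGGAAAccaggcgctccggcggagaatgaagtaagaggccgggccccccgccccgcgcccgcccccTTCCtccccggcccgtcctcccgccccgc
Bmf: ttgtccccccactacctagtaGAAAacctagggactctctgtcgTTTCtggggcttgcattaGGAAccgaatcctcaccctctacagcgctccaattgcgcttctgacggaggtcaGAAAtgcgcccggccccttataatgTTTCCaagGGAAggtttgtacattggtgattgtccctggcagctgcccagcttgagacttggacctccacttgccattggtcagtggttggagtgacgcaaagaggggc
IRF4 binds DNA weakly alone and is known to bind composite sites with the Ets factors PU.1 and SPIB. The composite of GGAA and, after any 2 bases, GAAA was in 2.72% of all 32851 promoters of the table (250 bases before to 50 after a start, both strands), and the interferon response core, GAAA repeated after any 2 bases, in 3.44%. Neither was in any of the 16 promoters of the 9 members searched (all but Pmaip1, Bax included), so these letters are not in these windows. The short cores are common: GGAA was in 96.0% of all promoters and in 15 of the 16, and GAAA in 89.2% and in 12 of the 16. In the stretches shown Bcl2 had 2 GGAA and 3 GAAA, and Bmf 3 and 4. The base composition differed, with 74.8% G or C in Bcl2 and 54.0% in Bmf.

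Bcl2l11 encodes BIM, which binds all pro-survival members. None of its 5 probe sets passed. The brightest, 1456005_a_at, read 3013, 4354, 2795 and 2720 on the Irf4 null arrays and 3214, 7187, 2730 and 3277 on the wild-type arrays. The Irf4 null values lie within the wild-type range except for the lowest, and wild-type array 2 was far above all others. The log2 fold change was -0.26 ± 0.27 (adjusted p = 0.684), and it was 0.045 without wild-type array 2 (adjusted p = 0.906), so that array sets its sign. Wild-type array 2 gave the highest wild-type signal on all 5 Bcl2l11 probe sets: probe set 1435448_at read 2354, 2562, 2006 and 1892 on the Irf4 null arrays and 2290, 3309, 1677 and 1838 on the wild-type arrays. Within the Xist-low arrays, where wild-type array 2 is the only wild-type array, 1456005_a_at differed by -1.16 (adjusted p = 0.0524), and within the Xist-high arrays by -0.024 (adjusted p = 0.983). The test of the difference between those values did not pass (1.13, adjusted p = 0.484).

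Bid links death receptors to the mitochondrion, since caspase-8 cuts its protein into the active form. Probe set 1417045_at read 2195, 2458, 2143 and 2803 on the Irf4 null arrays and 1418, 2420, 1439 and 1610 on the wild-type arrays. Every Irf4 null array was above wild-type arrays 1, 3 and 4, and wild-type array 2 lay among the Irf4 null values. The log2 fold change of 0.50 ± 0.16 did not pass (adjusted p = 0.128; 95% interval 0.15 to 0.86). Without wild-type array 2 it was 0.68 ± 0.10 (adjusted p = 0.00320), but the wild-type arrays that remain are all Xist-high. It was 0.56 within the Xist-high arrays and 0.020 within the Xist-low arrays, neither past the threshold (adjusted p = 0.178 and 0.979), and 0.29 with the Xist-high term (adjusted p = 0.374). Probe set 1448560_at had the same pattern, with 305, 382, 364 and 331 on the Irf4 null arrays and 212, 369, 242 and 196 on the wild-type arrays. Its log2 fold change was 0.45 ± 0.18 (adjusted p = 0.228), and 0.64 without wild-type array 2 (adjusted p = 0.0171). The remaining Bid probe set, 1447873_x_at, was at 0.23 ± 0.21 (adjusted p = 0.641).

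Pmaip1 encodes NOXA, which binds MCL-1 and promotes its breakdown. It read 1657, 1917, 1915 and 1568 on the Irf4 null arrays and 1091, 1957, 1195 and 1112 on the wild-type arrays. As for Bid, wild-type array 2 was high, here above all Irf4 null arrays, while the other wild-type arrays lay below all of them. The log2 fold change was 0.43 ± 0.17 (adjusted p = 0.218), 0.63 ± 0.10 without wild-type array 2 (adjusted p = 0.00316), 0.54 within the Xist-high arrays and -0.13 within the Xist-low arrays (adjusted p = 0.159 and 0.802). With the other-cell covariate it was 0.14 (adjusted p = 0.690). Bbc3 encodes PUMA, a target of p53 that binds all pro-survival members. It read 161, 191, 193 and 106 on the Irf4 null arrays and 74.7, 203, 116 and 119 on the wild-type arrays. The groups overlapped, and the log2 fold change of 0.35 ± 0.27 did not pass (adjusted p = 0.577). Without wild-type array 2 it was 0.57 (adjusted p = 0.180).

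Wild-type array 2, the wild-type array with Xist-low values and high markers of other cells, gave the highest wild-type signal on all 10 tested probe sets of Bcl2l11, Bid, Bbc3 and Pmaip1, and on none of the 8 of Bcl2, Bcl2l1 and Bmf. Over the 25 tested probe sets it was highest on 12, and over all 27022 on 26.8%. This array also had the highest sum of plasma cell markers, 41274. Jchain read 12829 on it and 2222 to 2767 on the other wild-type arrays. Among the wild-type arrays Igha, Prdm1, Eaf2 and Xbp1 were also highest on it, while Sdc1 and Irf4 were lowest on it. Whether RNA of other cells or of plasma cells carries the high signal of this array was not tested for single genes beyond the covariate fits, which hold no plasma cell markers. In those fits, against genotype alone and at the brightest probe sets, Bid was at 0.32 against 0.50, Pmaip1 at 0.14 against 0.43 and Bbc3 at -0.030 against 0.35. Bmf was at -0.62 against -0.89, Bcl2l11 at -0.64 against -0.26 and Bcl2 at -0.74 against -0.67.

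**Figure D3:**
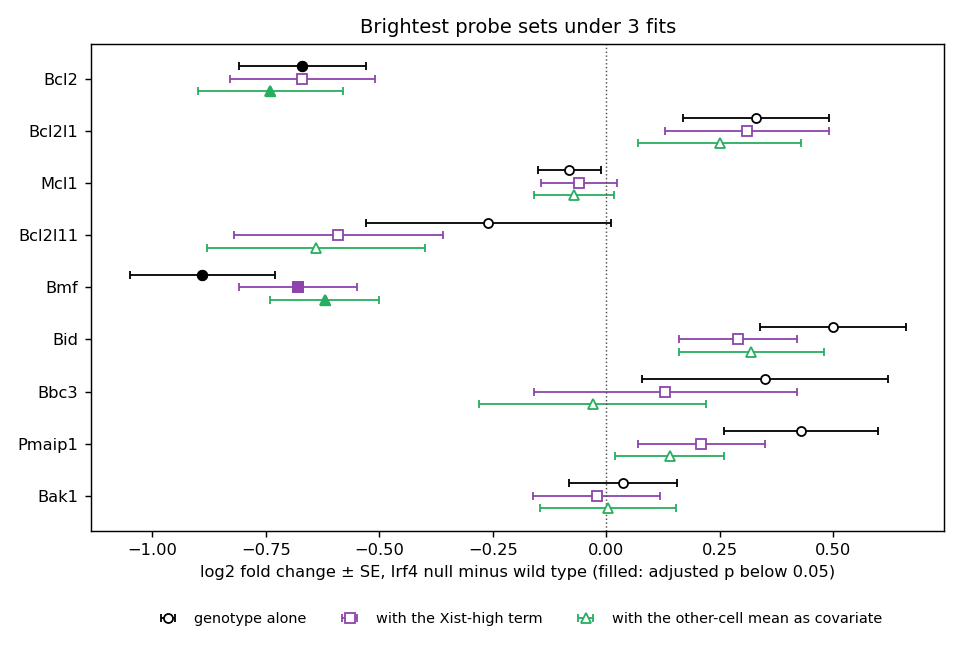
Log2 fold change ± SE of the brightest probe set of each gene from 3 limma fits: genotype alone (black circles), with the Xist-high term (purple squares) and with the mean of 52 markers of other cells as a covariate (green triangles); filled symbols have an adjusted p below 0.05. Bmf is filled in all 3 fits and Bcl2 in those with genotype alone and with the covariate, while Bid, Bbc3 and Pmaip1 move closer to 0 when either term is added and Bcl2l11 moves away from it.

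Of the effectors, Bak1 encodes BAK, which sits on the outer mitochondrial membrane. Probe set 1418991_at read 307, 293, 298 and 339 on the Irf4 null arrays and 295, 339, 256 and 318 on the wild-type arrays. The groups overlapped fully, with a log2 fold change of 0.037 ± 0.12 (adjusted p = 0.920; 95% interval -0.23 to 0.30). The other Bak1 probe set was dim, at 20.3 ± 10.9 in Irf4 null and 41.1 ± 13.6 in wild type (SD, n = 4 each), and was left out of the main test. Without the filter it did not pass (-0.67, limma, adjusted p = 0.353).

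**Figure D4:**
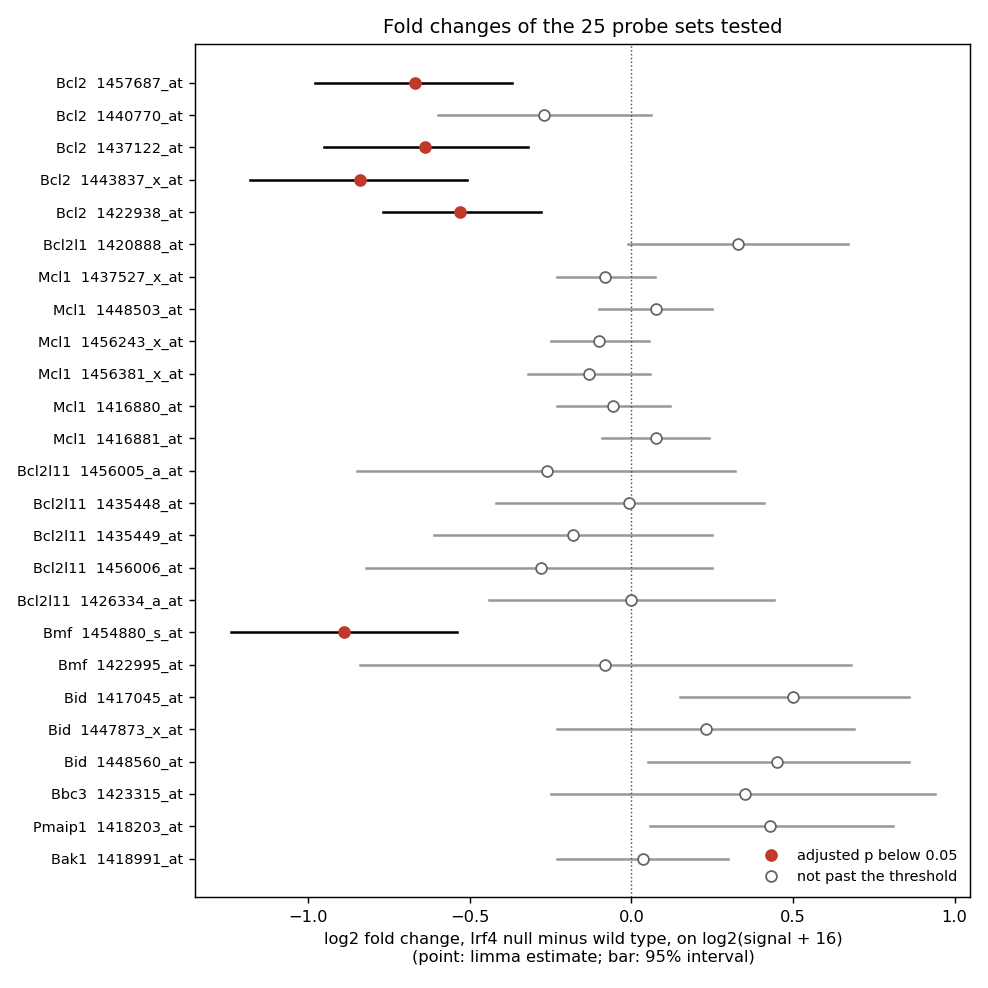
Log2 fold change, Irf4 null minus wild type on log2(signal + 16), of the 25 tested probe sets with 95% intervals, ordered by gene; filled points have an adjusted p below 0.05. The 5 filled points are 4 of Bcl2 and 1 of Bmf, all below 0, and the 6 Mcl1 intervals are the narrowest block, between -0.32 and 0.25.

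The balance of the sides was described per array, with no test since the members were chosen. Each gene entered as its brightest probe set, as the log2 difference from its own wild-type mean, because signals of different probe sets cannot be set against each other. The mean of the 3 pro-survival genes was -0.17, -0.10, 0.0075 and -0.30 on the Irf4 null arrays and -0.086, -0.020, 0.065 and 0.041 on the wild-type arrays. The mean of the 6 death-promoting genes was 0.021, 0.17, -0.020 and -0.059 on the Irf4 null arrays and -0.18, 0.41, -0.19 and -0.040 on the wild-type arrays. Wild-type array 2 was again the highest of all 8 on the death-promoting side.

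The balance, pro-survival minus death-promoting, was -0.19, -0.27, 0.028 and -0.24 on the Irf4 null arrays and 0.090, -0.43, 0.26 and 0.081 on the wild-type arrays. It averaged -0.17 ± 0.14 in Irf4 null and 0 ± 0.30 in wild type (SD, n = 4 each; the wild-type mean is 0 by construction), a difference smaller than the wild-type SD. The groups overlapped, since wild-type array 2 had the lowest balance of all. Without that array the difference was -0.31, and within the Xist-low arrays, where that array is the only wild type, it was 0.27. On the brightest probe sets 2 of 3 pro-survival genes and 2 of 6 death-promoting genes had lower means in Irf4 null, with Bcl2 at -0.67 and Bmf at -0.89.

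Pairs of members were described in the same way. Bcl2 relative to Bmf was -0.077, 0.12, 0.83 and 0.0007 on the Irf4 null arrays and -0.51, 0.35, -0.0036 and 0.16 on the wild-type arrays, and the groups overlapped. Bcl2 relative to Bcl2l11 was -0.42, -0.91, 0.085 and -0.39 on the Irf4 null arrays and 0.016, -0.99, 0.40 and 0.57 on the wild-type arrays, and overlapped. Bcl2 relative to Bid was -1.13, -1.26, -0.70 and -1.61 on the Irf4 null arrays and 0.020, -0.59, 0.15 and 0.42 on the wild-type arrays. Of the 6 pairs formed, Bcl2 with Bid was the only one in which every Irf4 null array lay below every wild-type array. Bcl2 alone already separated the groups in this way and Bid alone did not. The pairs were chosen with earlier results known, so the separation is no further evidence of a shift between these genes. Mcl1 relative to its partner Pmaip1 was -0.41, -0.62, -0.64 and -0.39 on the Irf4 null arrays and 0.11, -0.63, 0.15 and 0.37 on the wild-type arrays. There 3 wild-type arrays were above all Irf4 null arrays and wild-type array 2 was not.

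**Figure D5:**
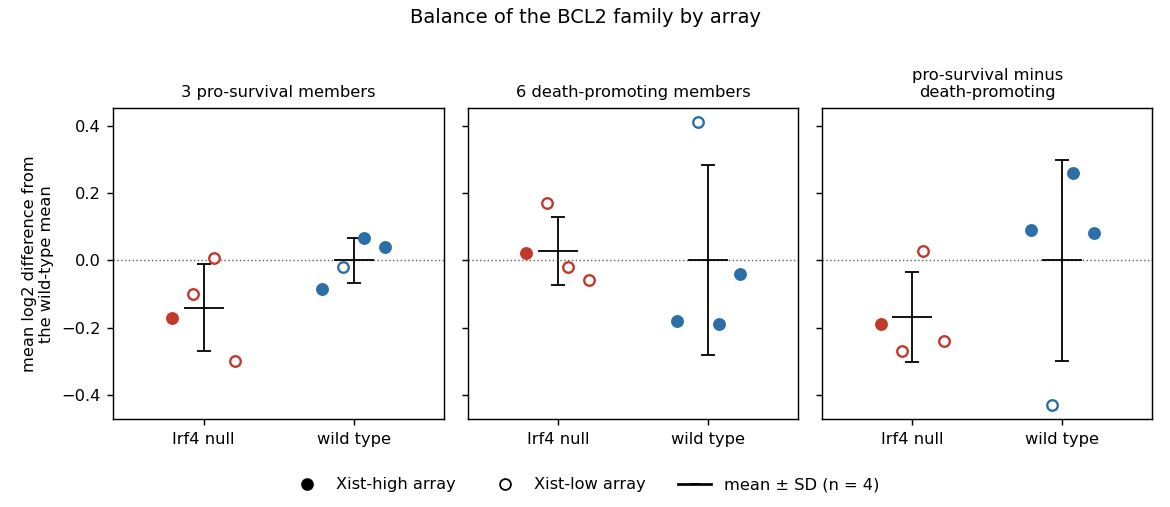
Mean log2 difference from the wild-type mean of the 3 pro-survival genes, of the 6 death-promoting genes, and of the pro-survival mean minus the death-promoting mean, by array, with Irf4 null in red and wild type in blue, filled points for Xist-high and open points for Xist-low arrays, and the mean ± SD. The open wild-type point, array 2, is at 0.41 on the death-promoting side and at -0.43 in the balance, beyond all other arrays.

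The wider survival pathway was followed in 8 lists of 88 genes, of which 72 could be tested. In Irf4 null B cells 2 rose and 3 fell, 6.94% of the 72, against 4.37% of all genes, with a median log2 fold change of -0.011 against 0.025 over all genes. Of 5 other pro-survival family genes only Bcl2l2 (BCL-W) could be tested, at -0.10 ± 0.11 (adjusted p = 0.704). The A1 genes Bcl2a1a, Bcl2a1b and Bcl2a1d, which encode a pro-survival protein of activated lymphocytes, share their probe sets and so have none of their own. Among 10 further family and BH3-containing genes 7 were tested and 0 passed with limma, while 1 had an unadjusted p below 0.05. Bcl2l12 had the smallest p, with 653, 697, 645 and 610 on the Irf4 null arrays and 539, 527, 550 and 563 on the wild-type arrays (0.25 ± 0.088, adjusted p = 0.167), followed by Bcl2l13 at -0.20 ± 0.10 (adjusted p = 0.346).

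Upstream of the family, Tnfrsf13c, the BAFF receptor through which B cells receive their main survival signal, fell. It read 6888, 5747, 6126 and 6999 on the Irf4 null arrays and 11082, 7406, 12140 and 11614 on the wild-type arrays, a log2 fold change of -0.69 ± 0.14 (adjusted p = 0.0244). Wild-type array 2 was again nearest to the Irf4 null arrays: the difference was -0.24 within the Xist-low arrays and -0.75 within the Xist-high arrays, each with a single array of 1 genotype. Without wild-type array 2 it was -0.85 (adjusted p = 2.3e-04). The Tnfrsf13c call was lost with the Xist-high term (-0.50, adjusted p = 0.0531), with the other-cell covariate (-0.45, adjusted p = 0.0609) and in 6 of 8 fits that left out 1 array. Cd40, the receptor for T cell help that induces BCL-XL, rose by 0.40 ± 0.072 (adjusted p = 0.0132) and still passed when Xist-high was a term (0.40, adjusted p = 0.0345). These were 1 rise and 1 fall among 13 tested genes of B cell survival signals. Of 13 transcription factors known to act on family genes, Bcl6, a transcriptional repressor needed by germinal centre B cells, fell. It read 2174, 2112, 2102 and 2115 on the Irf4 null arrays and 3754, 3604, 3320 and 3948 on the wild-type arrays (-0.78 ± 0.072, adjusted p = 2.8e-04). The Bcl6 difference was -0.75 within the Xist-high and -0.77 within the Xist-low arrays, each with a single array of 1 genotype. The other 12 did not pass at their brightest probe set. Of these Foxo1, named here after its values were seen, was at -0.45 ± 0.11 (adjusted p = 0.0537) with all Irf4 null arrays below all wild-type arrays, and both of its other tested probe sets were called.

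Partners and downstream genes were also read at their brightest probe set. Of 12 tested partners and turnover genes Fbxw7, the ubiquitin ligase subunit that marks MCL-1 among other proteins for breakdown, fell by 0.50 ± 0.10 on the log2 scale (adjusted p = 0.0206), with 1103, 904, 1138 and 958 on the Irf4 null arrays and 1338, 1453, 1600 and 1410 on the wild-type arrays. Its adjusted p was 0.0662 with the Xist-high term. In the same list Dynll2, a dynein light chain that binds BMF, also named after its values were seen, was at 0.42 ± 0.11 (adjusted p = 0.0728) with all Irf4 null arrays above all wild-type arrays, and its other tested probe set was called. Of 11 apoptosome and caspase genes Htra2, a mitochondrial protease released in apoptosis, rose by 0.43 ± 0.10 (adjusted p = 0.0422), with 1072, 1257, 1198 and 1068 on the Irf4 null arrays and 809, 975, 774 and 852 on the wild-type arrays. It lost its call in 14 of 21 alternatives. Among 7 inhibitors of apoptosis limma called 0, and 4 had an unadjusted p below 0.05, with Naip5 at 0.77 ± 0.19 (adjusted p = 0.0507) and Birc5, which encodes the mitotic protein survivin, at 1.20 ± 0.39 (adjusted p = 0.127). Among 8 death receptor genes limma called 0, and 1 had an unadjusted p below 0.05, with Fcmr at -0.33 ± 0.11 (adjusted p = 0.136) and Casp8 at 0.20 ± 0.094 (adjusted p = 0.299).

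Some markers of cell types also differed between the genotypes, while numbers of cells were not tested. Of 8 marginal zone B cell markers tested 6 rose, with summed signals of 39797 to 46094 on the Irf4 null arrays and 20428 to 24907 on the wild-type arrays. Of 4 follicular B cell markers 1 fell (sums of 21157 to 28497 in Irf4 null and 30878 to 35011 in wild type), of 6 germinal centre markers 2 fell (2478 to 2735 in Irf4 null and 4124 to 4917 in wild type), and of 7 plasma cell markers, the targeted gene Irf4 among them, 5 fell (8828 to 10205 in Irf4 null and 17274 to 41274 in wild type). Bcl6 made up most of the germinal centre sum, with means of 2126 in Irf4 null and 3656 in wild type. Xbp1, which was not called, made up most of the plasma cell sum in Irf4 null (means of 8660 in Irf4 null and 9189 in wild type). Jchain had means of 43.6 in Irf4 null and 5064 in wild type, and Igha 34.4 and 6531. T cell markers (limma called 0 of 10, and 4 had an unadjusted p below 0.05) summed to 6634 to 16906 on the Irf4 null arrays and 7099 to 8522 on the wild-type arrays. Cd2 made up a large part of the T cell sum, with means of 5038 in Irf4 null and 5821 in wild type. Neutrophil markers (limma called 0 of 10, and 0 had an unadjusted p below 0.05) summed to 10993 to 77008 on the Irf4 null arrays and 5752 to 55266 on the wild-type arrays. Of 7 NK cell markers 1 rose, Prf1 at 1.33 ± 0.24 (adjusted p = 0.0122), and 6 had an unadjusted p below 0.05, with sums of 3976 to 12829 on the Irf4 null arrays and 2252 to 7367 on the wild-type arrays. Of 7 platelet markers 1 rose, Ppbp at 0.81 ± 0.19 (adjusted p = 0.0415), and 5 had an unadjusted p below 0.05, with sums of 4075 to 6244 on the Irf4 null arrays and 2664 to 3622 on the wild-type arrays. Monocyte, macrophage and dendritic cell markers (limma called 0 of 12, and 2 had an unadjusted p below 0.05) summed to 16163 to 33563 on the Irf4 null arrays and 11636 to 38822 on the wild-type arrays. Erythroid markers (limma called 0 of 6, and 0 had an unadjusted p below 0.05) summed to 1035 to 14714 on the Irf4 null arrays and 1294 to 3643 on the wild-type arrays. The part of the B cell subsets in the decreases of Bcl2 and Bmf was not tested.

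By likeness over the 8 arrays, the genes closest to Bcl2 (1457687_at) were Casp6, Mbd2 and Oxr1, with Pearson correlations of 0.976, 0.971 and 0.964 of log2 values. Those closest to Bmf (1454880_s_at) were Armcx2, Pifo and Zbtb2, at 0.975, 0.974 and 0.973. These are the highest of 11802 genes over 8 arrays that share 2 genotypes, and are a description. Of the 6, Armcx2 passed the test of genotype and fell by 0.63 (adjusted p = 0.0105), with means of 1135 in Irf4 null and 1768 in wild type. Casp6, an executioner caspase, was at -0.17 (adjusted p = 0.305).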

How the data were processed

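RNA of 8 samples was measured on 1 Affymetrix mouse array each. Each deposited value is the intensity of a probe set, not log-transformed, made by the authors with MAS5 per the submitters' processing notes; no source used here gives its settings. The trimmed mean was 500.0 on every array, so no further normalization was applied. There are no detection calls, and precision is limited by having 4 arrays a genotype. Gene names came from the platform annotation (34958 with 1 symbol, 932 with several, 9211 with none), updated by gene identifier through RefSeq's gene table (34754 matched).

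The 64 control probe sets and the lowest 40% by mean log2(signal + 16) over all arrays (up to 5.88, a signal of 42.9) were left out, which left 27022. The test of genotype used R 4.3.3 and limma 3.58.1 (lmFit, eBayes with a variance trend, Benjamini-Hochberg adjustment over the 27022, threshold 0.05), which was tested on simulated data. Lists used the brightest tested probe set of a gene. Figures were drawn with matplotlib 3.10.9. The members, lists, pairs and alternatives were chosen with earlier results of these data known. All members are named, from each pathway list up to 4 called genes with the smallest adjusted p or 2 where none was called, and the 3 genes most like Bcl2 and Bmf. The planned balance held 7 death-promoting genes, but Bax had no probe set assigned to it alone, so 6 were used. Alternatives were the pseudocount (1 and 64), the filter, quantile normalization, the variance model, weights per array, a block for replicate number, leaving out single arrays, an Xist-high term, fits within Xist-high and Xist-low arrays (spread pooled over all), and the other-cell mean as a covariate.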

Additional observations from a re-analysis of the deposited data

Results flagged for a closer look

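Of 66 groups of 4 arrays examined (the 30 member probe sets, Irf4 and the balance in each genotype), 4 held an array far from the others by Dixon's criterion, and chance alone gives about 1 in 20. Bcl2 1440770_at read 765 on Irf4 null array 1, against 1172 to 1202 on the other Irf4 null arrays. Bcl2l11 1435449_at read 1797 on wild-type array 2, against 1081 to 1171 on the other wild-type arrays. Bcl2l11 1426334_a_at read 111 on Irf4 null array 3, against 130 to 132 on the other Irf4 null arrays. Pmaip1 1418203_at read 1957 on wild-type array 2, against 1091 to 1195 on the other wild-type arrays. The difference of the genotype effect between Xist-high and Xist-low arrays was called for none of the 25 member probe sets (limma, lowest adjusted p = 0.355; 6 had an unadjusted p below 0.05, against 7.54% of all probe sets).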

How the results depend on the processing

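Irf4 kept its direction and call in all 21 alternatives. The count of called BCL2 family probe sets, 5, was 2 with the Xist-high term, 3 with the other-cell covariate and 3 with eBayes without a trend. Without 1 array it was 2 to 8, with 8 without wild-type array 2, when Bid and Pmaip1 passed. It was 2 without wild-type array 3 or 4 or Irf4 null array 2 or 4, and 3 without Irf4 null array 1. The count over all probe sets, 950, was 1746 with array weights, 601 with the covariate, 555 without a trend, 255 and 264 within Xist-high and Xist-low arrays, and 466 (without Irf4 null array 4) to 2172 (without wild-type array 2) without 1 array. The count of pathway genes, 5, was 12 with array weights, 10 with the replicate block, 2 with the Xist-high term, 2 with the covariate, 1 without a trend, 2 and 1 within Xist-high and Xist-low arrays, and 2 to 16 without 1 array, with 16 without wild-type array 2. The balance of -0.17 was 0.27 within Xist-low arrays and -0.31 to -0.082 without 1 array.

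Whether replicate numbers pair the samples cannot be settled from these values. The correlations of deviations of same-numbered arrays were 0.237, 0.277, -0.030 and -0.081, and 2 of 4 Irf4 null arrays were closest to their own number. With the replicate block 1168 probe sets were called, and 4 member probe sets, without Bcl2 1422938_at (-0.53, adjusted p = 0.0546).

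Signs turned for 33 fitted values, none of which passed. Of these probe sets Bcl2 1440770_at passed within Xist-high arrays, Bid 1448560_at passed without wild-type array 2, and Pmaip1 passed there and with array weights. Within Xist-high arrays Mcl1 1456243_x_at was at 0.0063 and 1456381_x_at at 0.024, Bcl2l11 1435448_at at 0.29, 1435449_at at 0.17 and 1426334_a_at at 0.23, and Bmf 1422995_at at 0.014. Within Xist-low arrays Bcl2 1440770_at was at 0.085, Mcl1 1416881_at at -0.025, Bmf 1422995_at at 0.25, Bid 1448560_at at -0.039, Bbc3 at -0.34, Pmaip1 at -0.13 and Bak1 at -0.13. With the Xist-high term Bmf 1422995_at was at 0.13 and Bak1 at -0.021; with the covariate Bmf 1422995_at was at 0.071 and Bbc3 at -0.030. Bcl2l11 1435448_at was at 0.0046 with quantile normalization and 0.093 with array weights, and 1426334_a_at at 0.0022 with a pseudocount of 1 and 0.069 with array weights. Without 1 array, ranges that crossed 0 were -0.42 to 0.045 for Bcl2l11 1456005_a_at, -0.14 to 0.19 for 1435448_at, -0.13 to 0.16 for 1426334_a_at, -0.28 to 0.18 for Bmf 1422995_at and -0.036 to 0.092 for Bak1. The cause was not tested.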
